A study of Mus musculus with 18 samples.

Results

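Integrins and laminins are 2 gene families of cell-to-matrix adhesion, and they were followed here in RNA of lung cells from 4 mouse genotypes. The cells were captured by the epithelial surface protein EpCAM, but markers of other cell types were measured in the same RNA. The members are all genes whose symbol begins with Itga or Itgb, apart from the binding-protein genes Itgb1bp1 and Itgb3bp, and all laminin chain genes Lama, Lamb and Lamc. Of the 15544 genes with deposited levels, 38 met this rule, namely 28 integrin genes and 10 laminin genes. Itgb1bp2, which encodes melusin, a protein that binds an integrin tail and is no subunit itself, met the rule by its symbol. It had a mean of 5.94, the only member below the minimum mean level of 6, so that 37 members were tested. Itgbl1 and Lama1 were not analysed here. In the annotation, exons of 12 members overlap those of another gene, among them Itga1, Itga7, Itga8, Itgam, Itgav, Lama2, Lama3 and Lamc3. The labels do not say whether the counting used the strand, so reads of these members and of their overlapping genes may not have been told apart. For Itga1, Itga10, Itgad and Itgam an overlapping gene lies on the same strand, and counting by strand would not separate the pair.

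Cells carrying the epithelial surface protein EpCAM were captured with magnetic beads from lungs of mice 10 to 12 weeks old, and their total RNA was sequenced. The 18 libraries comprise 4 labelled Double-Het, with the genotype Falcor+/-;Foxa2+/- (replicates 15 to 18), 5 from Falcor-/- animals (replicates 6 to 10), 4 from Foxa2+/- animals (replicates 11 to 14) and 5 from wild-type animals (replicates 1 to 5). The Foxa2 protein is a forkhead factor that controls transcription in lung epithelium; Falcor, a long non-coding RNA, comes from its neighbourhood. The labels name no Cre driver or tissue-restricted allele, and they do not say whether animals were pooled, so the p-values measure the spread between these libraries. All values are log2 expression levels, in which a difference of 1 is a doubling; the depth behind them is unknown. Values are given in the order of replicate numbers.

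An integrin is a pair of 1 alpha and 1 beta subunit that spans the cell membrane. Outside the cell it holds matrix proteins or proteins of other cells, and inside it is tied through talin and kindlin to actin. A laminin is a trimer of an alpha, a beta and a gamma chain, secreted into the basement membrane, the thin sheet under every epithelium and around vessels and muscle. In the lung, alveolar and airway epithelium makes the chains encoded by Lama3, Lama5 and Lamb3, while Lama2 and Lama4 are known above all from mesenchymal and endothelial cells. Leukocytes carry integrins of their own, built on the beta subunits encoded by Itgb2 and Itgb7.

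The targeted genes and the marker genes of other cell types frame these results. Foxa2 was 12.36 ± 0.19 in libraries labelled Double-Het, 12.74 ± 0.23 in Falcor-/-, 12.39 ± 0.05 in Foxa2+/- and 12.97 ± 0.08 in wild type (SD, n = 4, 5, 4 and 5). The Falcor transcript, annotated as 9030622O22Rik, was 11.66 ± 0.15, 6.20 ± 0.68, 11.70 ± 0.21 and 10.18 ± 0.48 in the same order. The transcript was thus lowest in Falcor-/-. In the libraries labelled Double-Het it was above wild type, although that label names the loss of a Falcor copy. It was as high in Foxa2+/-, whose label names no Falcor loss, so the level alone cannot show how many Falcor copies were present. Epcam lay between 13.75 and 14.48 in all libraries. The mean of 16 epithelial markers was 13.68 ± 0.12 in libraries labelled Double-Het, 13.56 ± 0.12 in Falcor-/-, 13.59 ± 0.04 in Foxa2+/- and 13.36 ± 0.05 in wild type (SD). Of these 16 markers, 5, 4 and 2 were called higher than in wild type in the 3 mutant groups, in that order, and 0 lower. Markers of other cell types were measured too: the mean of 20 endothelial markers was 10.16 ± 0.26 in libraries labelled Double-Het, 11.76 ± 0.68 in Falcor-/-, 10.49 ± 0.22 in Foxa2+/- and 12.47 ± 0.58 in wild type (SD). The mean of 16 mesenchymal markers was 8.56 ± 0.16, 9.92 ± 0.57, 9.05 ± 0.55 and 10.69 ± 0.47 in the same order. Apart from its group stood Falcor-/- replicate 10, whose endothelial mean was 12.86, against 11.07 to 11.82 in the other Falcor-/- libraries. Wild-type replicate 3 stood apart with 11.48, against 12.46 to 12.98 in the other wild-type libraries.

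Most changes were falls, and they were most numerous in the libraries labelled Double-Het. Against wild type, 0 members rose and 14 of 37 fell in libraries labelled Double-Het, where 14.8% of all 15249 genes tested were called changed and 7.57% were called lower and 7.21% higher. In Falcor-/-, 1 rose and 7 fell, with 9.47% of all genes called and 4.24% called lower and 5.23% higher. In Foxa2+/-, 0 rose and 6 fell, with 6.11% of all genes called and 4.15% called lower and 1.96% higher. The median change over the 37 members was -0.35 in libraries labelled Double-Het, -0.28 in Falcor-/- and -0.11 in Foxa2+/-, and the medians over all genes tested were 0.07, 0.03 and 0.04. A gene was called below an adjusted p of 0.05, from limma with Benjamini-Hochberg adjustment over all genes tested. Itga1, Itgb1 and Lama2 were called lower in all 3 comparisons with wild type, which share the wild-type libraries. Another 4 members were called in 2 of them and 11 in 1, while 17 members were called in no comparison between any of the genotypes. The Falcor-/- count was unstable: it was 1 to 3 without wild-type replicate 1, 2 or 4 or Falcor-/- replicate 6, 8 or 9, was 5 without replicate 10, and was 13 without Falcor-/- replicate 7. All genes moved likewise: 2.32% to 4.61% were called where the members gave 1 to 3, 7.33% without replicate 10 and 25.7% without replicate 7. With the endothelial marker mean as a covariate, 0 members were called by limma in any of the 3, and the estimates of Itga3, Lama3, Lama4 and Lamc1 in libraries labelled Double-Het and of Itga3 in Foxa2+/- turned positive, between 0.10 and 0.16. Of all genes, 0.0131%, 1.16% and 0% were then called in libraries labelled Double-Het, Falcor-/- and Foxa2+/-, so the 0 is the background and tells nothing of the members. That mean itself differed with genotype, which accounted for 81.6% of its variance, so that the covariate and the genotype can hardly be told apart.

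**Figure D1:**
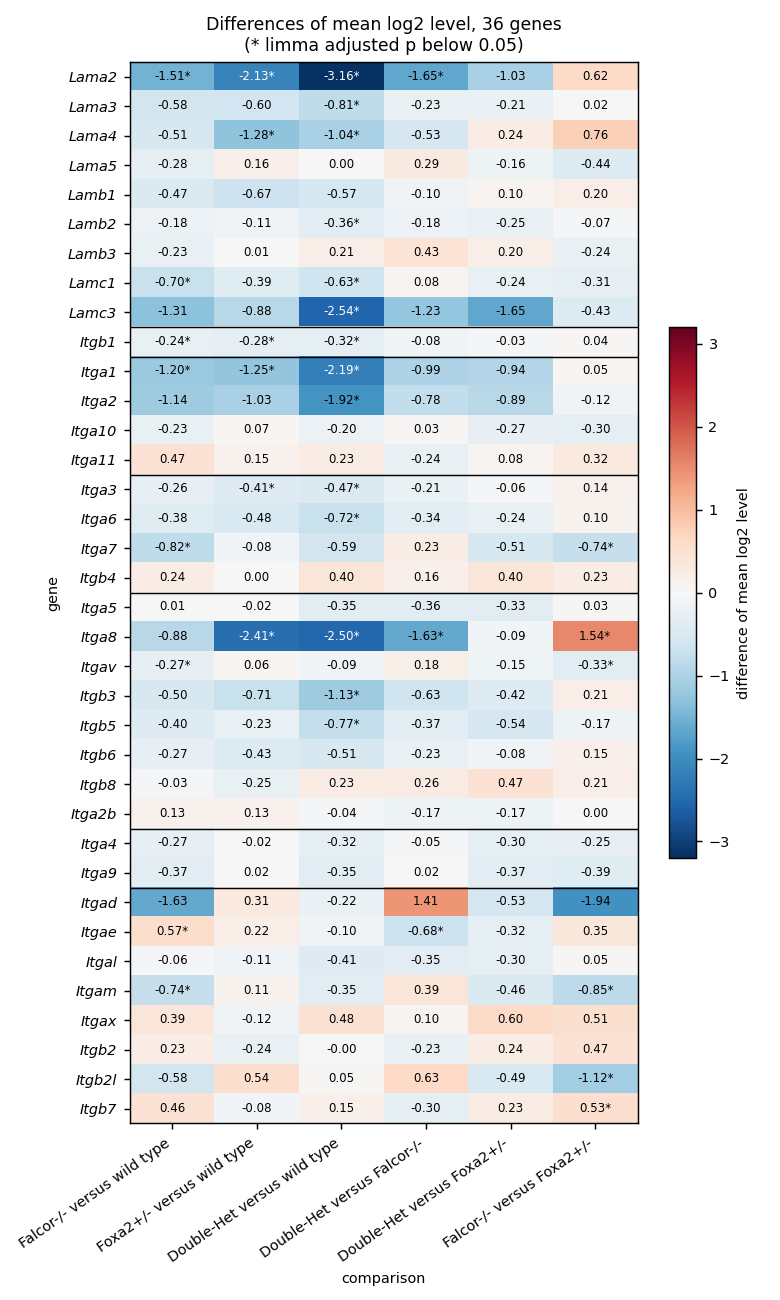
Differences of mean log2 level for 36 of the tested genes (rows, grouped by role) in the 6 comparisons between genotypes (columns), first-named minus second-named genotype; blue is lower, red is higher, and an asterisk marks a limma adjusted p below 0.05. Lama2, Itga8, Lamc3 and Itga1 hold the deepest blue in the column of Double-Het versus wild type, at -3.16, -2.50, -2.54 and -2.19. The lower rows with the leukocyte integrins hold no asterisk there, where 14.8% of all genes tested were called.

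Of the 4 laminin alpha chains measured, Lama2 had the largest change. It encodes the alpha 2 chain, known from the basement membranes of muscle and other mesenchymal cells. Its levels were 7.28, 6.65, 7.12 and 6.45 in libraries labelled Double-Het, 8.36, 8.54, 7.83, 8.44 and 9.45 in Falcor-/-, 7.85, 7.75, 7.50 and 8.50 in Foxa2+/- and 10.25, 10.52, 9.13, 9.91 and 10.34 in wild type. Every mutant library lay below every wild-type library except Falcor-/- replicate 10, which lay above the lowest wild-type library, replicate 3. The change from wild type was -3.16 (SE 0.32, adjusted p = 3.37e-05) in libraries labelled Double-Het, which left 11.2% of the wild-type level. It was -2.13 (SE 0.32, adjusted p = 0.000761) in Foxa2+/- and -1.51 (SE 0.30, adjusted p = 0.0119) in Falcor-/-. Leaving out any 1 library ended none of these calls. With the endothelial mean as a covariate the estimates were -1.59, -0.78 and -1.02 and did not pass (adjusted p = 0.731, 0.99999 and 0.0688). In bulk RNA of this kind, fewer cells of a type and less RNA per cell cannot be told apart, and the endothelial and mesenchymal markers fell with Lama2. Of 20 endothelial markers 18 were called lower in libraries labelled Double-Het, 0 in Falcor-/- and 18 in Foxa2+/- by limma. Of 15 tested mesenchymal markers 13 were called lower in libraries labelled Double-Het, 2 in Falcor-/- and 10 in Foxa2+/-. In Falcor-/- all 20 endothelial and all 15 mesenchymal markers still had means below wild type, with median changes of -0.79 and -0.68. The part of these markers was not tested, since the endothelial covariate can hardly be told apart from genotype and no mesenchymal covariate was fitted.

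Lama4 encodes the alpha 4 chain of vessel basement membranes. It had levels of 9.94, 9.61, 10.22 and 10.19 in libraries labelled Double-Het, 10.83, 10.21, 10.07, 10.57 and 10.90 in Falcor-/-, 9.76, 9.92, 8.91 and 10.42 in Foxa2+/- and 11.18, 11.22, 10.36, 11.05 and 11.34 in wild type. All libraries labelled Double-Het lay below all wild-type libraries, whereas Foxa2+/- replicate 14 reached the range of wild type. The change was -1.04 (SE 0.27, adjusted p = 0.0146) in libraries labelled Double-Het and -1.28 (SE 0.27, adjusted p = 0.00655) in Foxa2+/-. In the first of these comparisons, without Double-Het replicate 16 the change was -0.91 and the adjusted p 0.0597. In Falcor-/- the difference of -0.51 did not pass (adjusted p = 0.159).

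Of the epithelial alpha chains, Lama3 was called lower in 1 comparison and Lama5 in none. Lama3, which encodes the alpha 3 chain, found in the laminin under hemidesmosomes, had levels of 12.87, 12.25, 13.63 and 13.53 in libraries labelled Double-Het, 13.10, 13.79, 12.91, 13.07 and 13.64 in Falcor-/-, 12.96, 13.34, 13.36 and 13.46 in Foxa2+/- and 14.26, 13.96, 13.39, 13.92 and 13.89 in wild type. The groups overlapped, since wild-type replicate 3 lay below 2 of the 4 libraries labelled Double-Het. Its change in libraries labelled Double-Het was -0.81 (SE 0.25, adjusted p = 0.0384), and without any one of Double-Het replicates 15 or 16 or wild-type replicates 1, 2, 4 or 5 the change was -0.81 to -0.54 and the adjusted p 0.0648 to 0.155. The differences in Falcor-/- and Foxa2+/- were -0.58 and -0.60 and did not pass (adjusted p = 0.105 and 0.195). Lama5, the alpha 5 chain gene of most mature epithelial basement membranes, differed from wild type by 0.00 (95% confidence interval -0.32 to 0.33, adjusted p = 0.991) in libraries labelled Double-Het. Its differences were -0.28 (95% confidence interval -0.59 to 0.02, adjusted p = 0.177) in Falcor-/- and 0.16 (95% confidence interval -0.16 to 0.48, adjusted p = 0.656) in Foxa2+/-.

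**Figure D2:**
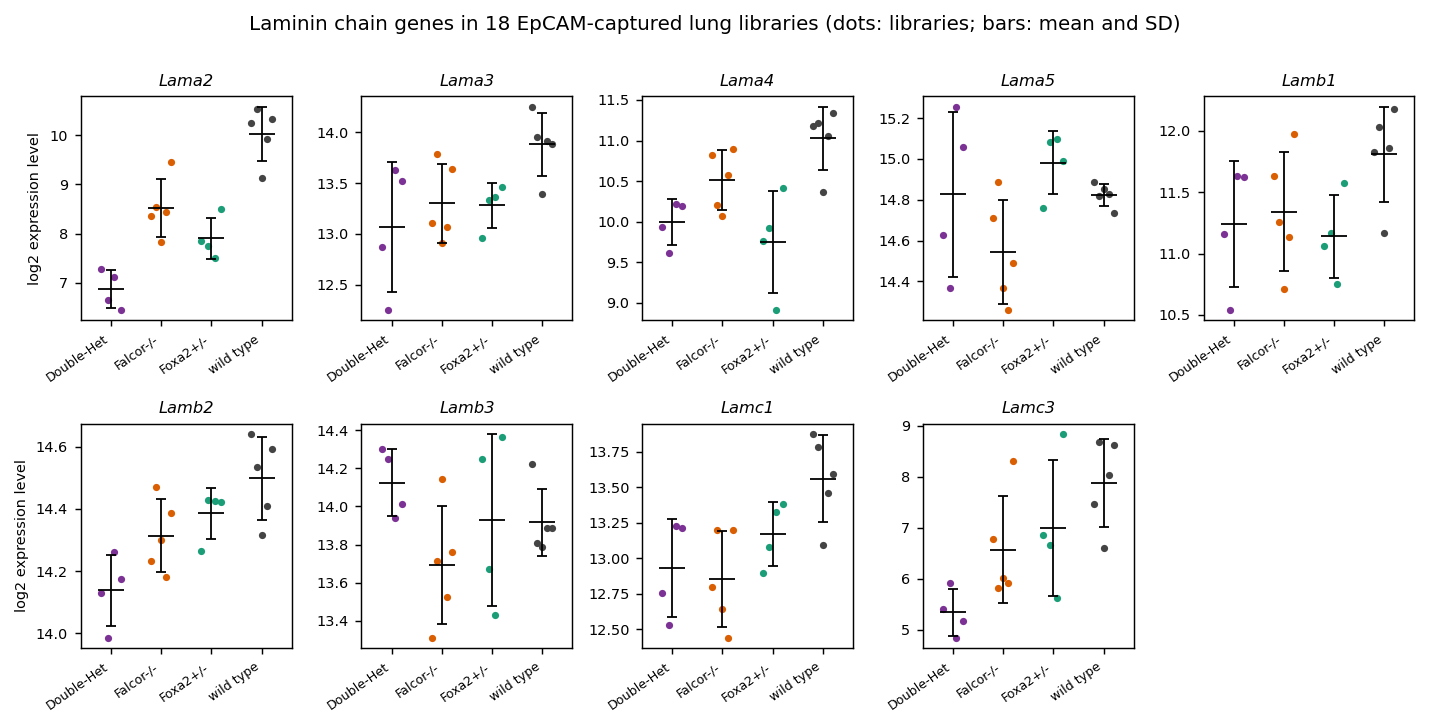
Log2 expression levels of 9 laminin chain genes by genotype, with each dot 1 library and bars at the mean and SD (n = 4 Double-Het, 5 Falcor-/-, 4 Foxa2+/- and 5 wild type); each panel has its own axis, which does not start at 0. Lama2 steps down in every mutant genotype, whereas the groups overlap for Lama5, Lamb1 and Lamb3.

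Among the beta chains Lamb2 fell by a small amount in libraries labelled Double-Het. The beta 2 chain belongs to laminins of vessels, muscle and mature epithelia. Lamb2 levels were 14.13, 13.99, 14.26 and 14.17 in libraries labelled Double-Het, 14.23, 14.47, 14.30, 14.18 and 14.39 in Falcor-/-, 14.26, 14.43, 14.43 and 14.42 in Foxa2+/- and 14.64, 14.53, 14.32, 14.41 and 14.59 in wild type. No library labelled Double-Het reached the wild-type range, and the change was -0.36 (SE 0.08, adjusted p = 0.0054). Lamb2 differed by -0.18 (adjusted p = 0.1) in Falcor-/- and -0.11 (adjusted p = 0.482) in Foxa2+/-, which did not pass. Lamb1, the widely expressed beta 1 chain gene, differed from wild type by -0.57 (95% confidence interval -1.14 to -0.01, adjusted p = 0.164) in libraries labelled Double-Het, -0.47 (95% confidence interval -1.003 to 0.07, adjusted p = 0.2) in Falcor-/- and -0.67 (95% confidence interval -1.24 to -0.10, adjusted p = 0.171) in Foxa2+/-. Lamb3, which encodes a beta chain of the same laminin as alpha 3, differed by 0.21 (95% confidence interval -0.18 to 0.59, adjusted p = 0.464), -0.23 (95% confidence interval -0.59 to 0.13, adjusted p = 0.354) and 0.01 (95% confidence interval -0.37 to 0.39, adjusted p = 0.986) in the same order.

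Of the gamma chains, Lamc1 and Lamc3 were called in libraries labelled Double-Het. Lamc1 encodes gamma 1, the partner in most laminins. It had levels of 12.76, 12.53, 13.23 and 13.22 in libraries labelled Double-Het, 12.80, 13.20, 12.64, 12.44 and 13.20 in Falcor-/-, 12.90, 13.08, 13.32 and 13.38 in Foxa2+/- and 13.87, 13.79, 13.09, 13.46 and 13.59 in wild type. Wild-type replicate 3 was the lowest wild-type library and lay among the mutant values. The change was -0.63 (SE 0.19, adjusted p = 0.0356) in libraries labelled Double-Het and -0.70 (SE 0.18, adjusted p = 0.0287) in Falcor-/-. For libraries labelled Double-Het, without any one of Double-Het replicates 15 or 16 or wild-type replicates 1, 2, 4 or 5 the change was -0.65 to -0.49 and the adjusted p 0.0518 to 0.138. For Falcor-/-, without any one of Falcor-/- replicates 6, 8 or 9 or wild-type replicates 1 or 2 the change was -0.69 to -0.60 and the adjusted p 0.052 to 0.0813. Lamc3, the gamma 3 chain gene, had levels of 5.41, 5.92, 4.84 and 5.18 in libraries labelled Double-Het, 6.78, 5.81, 6.01, 5.92 and 8.31 in Falcor-/-, 6.86, 6.66, 5.63 and 8.83 in Foxa2+/- and 7.46, 8.69, 6.60, 8.03 and 8.61 in wild type. All libraries labelled Double-Het lay below all wild-type libraries, and the change was -2.54 (SE 0.61, adjusted p = 0.00989). The mean in libraries labelled Double-Het, 5.34, was under the minimum mean level of 6, which Lamc3 passed with 6.75 over the 18 libraries. With a minimum of 8 it was not tested. Within the other mutants Foxa2+/- replicate 14 lay above every wild-type library and Falcor-/- replicate 10 within their range. Each also had the highest mesenchymal marker mean of its genotype, 9.79 in Foxa2+/- replicate 14 and 10.85 in Falcor-/- replicate 10. Each was highest for some other marker lists too, though not for all. Foxa2+/- replicate 14 had the highest basal cell mean of its genotype, 10.90, and the lowest endothelial mean, 10.31. Falcor-/- replicate 10 had the highest endothelial mean, 12.86, and the lowest club cell mean, 15.18. The part of these markers in the Lamc3 levels was not tested.

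Itgb1 encodes the beta 1 subunit, which pairs with more alpha subunits than any other. Its levels were 15.05, 14.89, 15.03 and 15.10 in libraries labelled Double-Het, 15.11, 15.11, 15.09, 14.96 and 15.21 in Falcor-/-, 15.05, 15.08, 15.09 and 14.996 in Foxa2+/- and 15.34, 15.40, 15.21, 15.35 and 15.37 in wild type. All libraries labelled Double-Het and all Foxa2+/- libraries lay below the wild-type range, and Falcor-/- replicate 10 alone among the Falcor-/- libraries reached the lowest wild-type library. The fall was small in each genotype. It was -0.32 (SE 0.06, adjusted p = 0.00219) in libraries labelled Double-Het, -0.24 (SE 0.06, adjusted p = 0.024) in Falcor-/- and -0.28 (SE 0.06, adjusted p = 0.00858) in Foxa2+/-, which left 80.3%, 84.8% and 82.2% of wild type. For Falcor-/-, without any one of Falcor-/- replicate 9 or wild-type replicates 1 or 2 the change was -0.24 to -0.20 and the adjusted p 0.0564 to 0.0632. With the endothelial mean as a covariate the estimates were -0.07, -0.16 and -0.07, none of them called (adjusted p = 0.949, 0.126 and 0.99999).

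The alpha subunits that bind collagen with beta 1 split in pairs. Itga1 and Itga2 were lower in libraries labelled Double-Het, and Itga10 and Itga11 were called in no comparison. Itga1, whose product favours the collagen IV of basement membranes, had levels of 9.31, 8.85, 10.18 and 9.77 in libraries labelled Double-Het, 10.60, 11.43, 9.28, 9.96 and 11.33 in Falcor-/-, 10.35, 10.38, 10.39 and 10.75 in Foxa2+/- and 11.74, 11.89, 11.28, 12.10 and 11.57 in wild type. Every Foxa2+/- library and every library labelled Double-Het lay below wild type, and in Falcor-/- replicates 7 and 10 reached the wild-type range. The change was -2.19 (SE 0.36, adjusted p = 0.000603) in libraries labelled Double-Het, -1.20 (SE 0.34, adjusted p = 0.0395) in Falcor-/- and -1.25 (SE 0.36, adjusted p = 0.0485) in Foxa2+/-. For Falcor-/-, without any one of Falcor-/- replicates 6, 8 or 9 or wild-type replicates 1, 2 or 4 the change was -1.22 to -0.89 and the adjusted p 0.0608 to 0.0976. For Foxa2+/-, without any one of Foxa2+/- replicates 11, 12, 13 or 14 or wild-type replicates 1, 2, 4 or 5 the change was -1.34 to -1.16 and the adjusted p 0.0728 to 0.121. Itga2, which encodes a collagen I receptor subunit of epithelia and platelets, had levels of 6.47, 5.18, 7.33 and 7.28 in libraries labelled Double-Het, 7.38, 8.08, 6.59, 6.73 and 7.92 in Falcor-/-, 7.75, 7.54, 7.08 and 7.46 in Foxa2+/- and 8.87, 8.83, 7.66, 8.78 and 8.28 in wild type. In libraries labelled Double-Het the highest value still lay under the lowest wild-type value, and the change was -1.92 (SE 0.42, adjusted p = 0.00515). In Falcor-/- and Foxa2+/- the differences of -1.14 and -1.03 did not pass (adjusted p = 0.0663 and 0.177). Itga10 differed from wild type by -0.20 (95% confidence interval -0.64 to 0.24, adjusted p = 0.549) and Itga11 by 0.23 (95% confidence interval -0.18 to 0.64, adjusted p = 0.45) in libraries labelled Double-Het.

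The promoters of the 3 members called lower in all comparisons with wild type, and of Itga8, are shown here as the 250 bases before the annotated start, read on the strand of the gene (RefSeq, GRCm38.p6). They lie at chr10:27616943-27617192 on the minus strand for Lama2, chr13:115101965-115102214 on the minus strand for Itga1, chr8:128685404-128685653 on the plus strand for Itgb1 and chr2:12301945-12302194 on the minus strand for Itga8. Capitals mark GGGCGG, the GC box, and GGAAGT, a core bound by ETS factors, on either strand; both were chosen after the sequences were seen.
Lama2: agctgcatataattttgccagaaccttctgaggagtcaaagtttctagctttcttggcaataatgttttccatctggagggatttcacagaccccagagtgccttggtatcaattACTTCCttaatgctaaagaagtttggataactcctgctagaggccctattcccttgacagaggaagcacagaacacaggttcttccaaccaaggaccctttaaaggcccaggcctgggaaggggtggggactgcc
Itga1: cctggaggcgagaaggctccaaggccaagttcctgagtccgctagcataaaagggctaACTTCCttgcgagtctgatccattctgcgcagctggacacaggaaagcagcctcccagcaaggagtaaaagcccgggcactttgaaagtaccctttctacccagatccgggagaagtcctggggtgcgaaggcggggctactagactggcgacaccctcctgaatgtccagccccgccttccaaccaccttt
Itgb1: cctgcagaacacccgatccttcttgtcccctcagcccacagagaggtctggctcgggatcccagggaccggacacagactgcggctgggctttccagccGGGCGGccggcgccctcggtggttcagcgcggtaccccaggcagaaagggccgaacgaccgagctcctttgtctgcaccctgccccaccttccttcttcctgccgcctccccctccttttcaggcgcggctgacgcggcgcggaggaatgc
Itga8: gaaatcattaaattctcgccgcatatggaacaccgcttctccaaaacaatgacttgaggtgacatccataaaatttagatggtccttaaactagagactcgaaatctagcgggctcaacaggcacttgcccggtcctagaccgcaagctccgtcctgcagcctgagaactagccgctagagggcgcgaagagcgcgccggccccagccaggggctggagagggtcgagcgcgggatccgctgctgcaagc
The letters GGAAGT occur once in Lama2, 135 bases before the start, and once in Itga1, 192 bases before it, on the opposite strand in both. They occur in 19.7% of the 32851 promoter windows of this length in the table. A single GGGCGG lies in Itgb1, 151 bases before the start, and 32.7% of all windows hold it. Neither is in the Itga8 window. Itgb1 has the highest content of G and C of the 4 windows, 68%, and Lama2 the lowest, 47.2%. The forkhead letters TGTTTAC and TATTTAC, searched on both strands, are in 0 of the 27 windows found for 24 of the 38 members, and one or the other is in 5.76% of all windows.

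Of the 4 subunits that make laminin receptors, Itga3, Itga6 and Itga7 were called lower in at least 1 comparison, and Itgb4 in none. Itga3, which pairs with beta 1 on alveolar epithelium, had levels of 14.04, 13.77, 14.16 and 14.02 in libraries labelled Double-Het, 14.35, 14.22, 13.95, 14.06 and 14.43 in Falcor-/-, 13.99, 14.06, 14.06 and 14.12 in Foxa2+/- and 14.64, 14.41, 14.11, 14.51 and 14.66 in wild type. The ranges overlapped through wild-type replicate 3, which lay near the mutant values. The change was -0.47 (SE 0.11, adjusted p = 0.011) in libraries labelled Double-Het and -0.41 (SE 0.11, adjusted p = 0.0423) in Foxa2+/-. For libraries labelled Double-Het, without Double-Het replicate 16 the change was -0.39 and the adjusted p 0.0503. For Foxa2+/-, without any one of Foxa2+/- replicates 11, 12, 13 or 14 or wild-type replicates 1, 2, 4 or 5 the change was -0.43 to -0.36 and the adjusted p 0.0623 to 0.11. In Falcor-/- Itga3 differed by -0.26 (adjusted p = 0.105), which did not pass. Alveolar type 1 markers moved with it: of 10 such genes, 7 were called lower in libraries labelled Double-Het and 7 in Foxa2+/-, with list means of 13.97 to 14.17 and 13.89 to 14.02 against 14.07 to 14.94 in wild type, and their part in this result was not tested.

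Itga6, whose product pairs with beta 4 in hemidesmosomes and with beta 1 elsewhere, had levels of 11.68, 11.53, 12.20 and 12.01 in libraries labelled Double-Het, 12.41, 12.16, 11.83, 12.06 and 12.53 in Falcor-/-, 12.14, 12.29, 11.93 and 12.02 in Foxa2+/- and 12.70, 12.27, 12.60, 12.99 and 12.32 in wild type. The libraries labelled Double-Het lay wholly below wild type, with a change of -0.72 (SE 0.17, adjusted p = 0.00844). The differences of -0.38 in Falcor-/- and -0.48 in Foxa2+/- did not pass (adjusted p = 0.111 and 0.109). Itga7, known from muscle as the receptor for the alpha 2 laminins, was the laminin receptor gene called in Falcor-/-. It had levels of 11.81, 11.36, 12.003 and 11.57 in libraries labelled Double-Het, 11.07, 11.44, 11.73, 11.66 and 11.37 in Falcor-/-, 11.71, 12.33, 12.43 and 12.30 in Foxa2+/- and 11.65, 12.90, 12.42, 12.62 and 11.77 in wild type. Falcor-/- overlapped wild type because wild-type replicate 1 was low. The change was -0.82 (SE 0.22, adjusted p = 0.0333), and without any one of Falcor-/- replicates 6, 8, 9 or 10 or wild-type replicates 2, 3 or 4 the change was -0.89 to -0.66 and the adjusted p 0.0506 to 0.0855. Itgb4 encodes the beta 4 subunit of hemidesmosomes. It differed from wild type by 0.40 (95% confidence interval 0.12 to 0.68, adjusted p = 0.0534) in libraries labelled Double-Het, 0.24 (95% confidence interval -0.03 to 0.50, adjusted p = 0.194) in Falcor-/- and 0.00 (95% confidence interval -0.28 to 0.29, adjusted p = 0.994) in Foxa2+/-.

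Receptors of RGD ligands such as fibronectin, vitronectin and latent TGF-beta were led by Itga8. Its product, alpha 8, pairs with beta 1 to bind nephronectin and is known from smooth muscle and fibroblasts. Itga8 levels were 9.34, 8.88, 9.49 and 8.90 in libraries labelled Double-Het, 10.67, 10.72, 9.96, 10.72 and 11.83 in Falcor-/-, 9.45, 9.36, 9.11 and 9.05 in Foxa2+/- and 11.79, 12.17, 10.97, 11.16 and 12.18 in wild type. The libraries labelled Double-Het and the Foxa2+/- libraries formed a low range that no library of the other genotypes entered, while Falcor-/- overlapped wild type through replicate 10. The change was -2.50 (SE 0.31, adjusted p = 7.20e-05) in libraries labelled Double-Het and -2.41 (SE 0.31, adjusted p = 0.000595) in Foxa2+/-, or 17.6% and 18.8% of wild type. No single library ended these calls. In Falcor-/- it was -0.88 (SE 0.29, adjusted p = 0.0593) and did not pass. With the endothelial mean as a covariate the estimates for the first 2 were -0.72 and -0.88 (adjusted p = 0.943 and 0.99999). Npnt, the gene of the ligand nephronectin, changed by -0.81 (adjusted p = 0.00367) in libraries labelled Double-Het and -0.60 (adjusted p = 0.0308) in Falcor-/-, and its difference of -0.36 (adjusted p = 0.242) in Foxa2+/- did not pass.

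**Figure D3:**
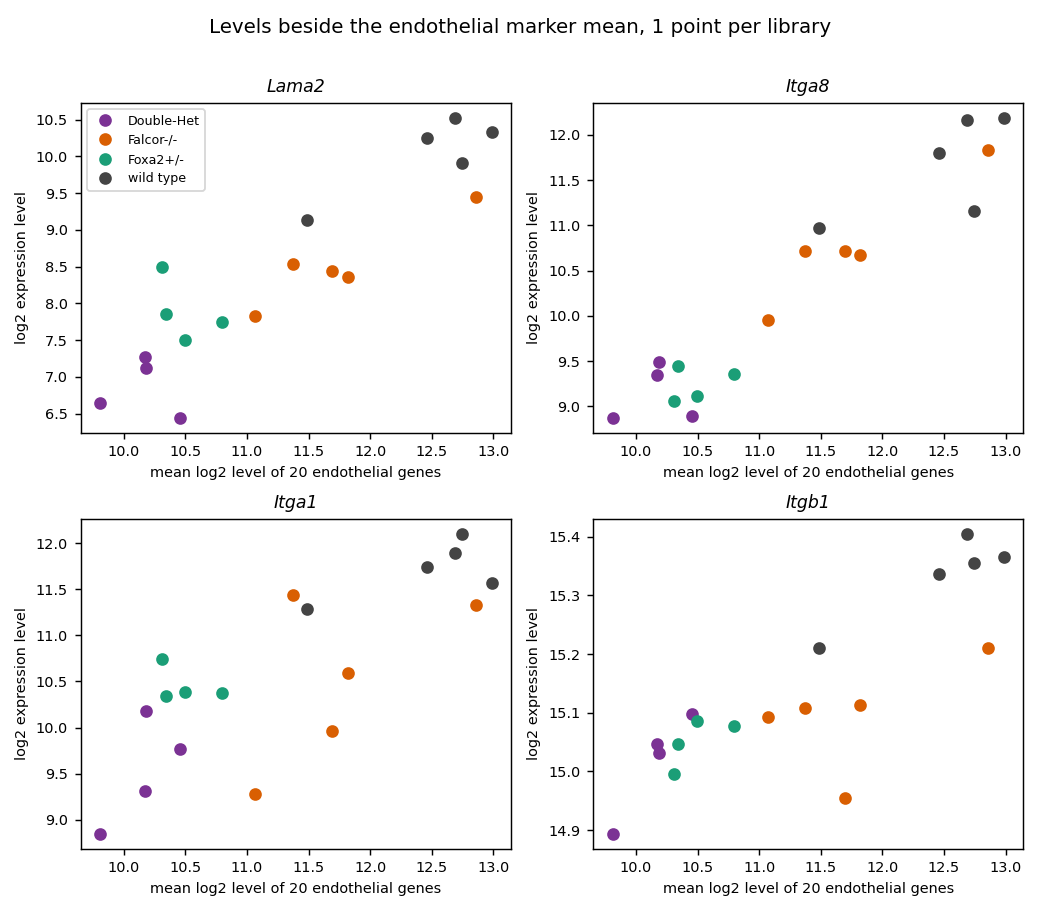
Log2 expression levels of Lama2, Itga8, Itga1 and Itgb1 (vertical axes, which do not start at 0) against the mean log2 level of 20 endothelial marker genes in the same library (horizontal axes), with 1 point per library coloured by genotype. Falcor-/- replicate 10, with an endothelial mean of 12.86, lies among the wild-type points on the right, and the libraries labelled Double-Het lie at the lower left.

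Among the partners of the alpha v subunit, Itgb3 and Itgb5 fell in libraries labelled Double-Het. Itgb3, a vitronectin receptor subunit of platelets and endothelium, had levels of 8.74, 8.44, 9.84 and 9.90 in libraries labelled Double-Het, 9.57, 10.02, 9.80, 9.64 and 10.27 in Falcor-/-, 9.45, 9.48, 9.60 and 10.07 in Foxa2+/- and 10.41, 10.22, 10.06, 10.82 and 10.30 in wild type. The libraries labelled Double-Het fell into 2 low and 2 higher values, all below wild type, and the change was -1.13 (SE 0.27, adjusted p = 0.00963). The 1 measured gene of the platelet list, Pf4, was 6.79 ± 0.38 in these libraries and 9.96 ± 0.36 in wild type (SD). In Falcor-/- it was 8.48 ± 0.96, and in Foxa2+/- it was 10.16 ± 0.25, not below wild type. The part of Pf4-expressing cells in the Itgb3 result was not tested. Itgb5, a vitronectin receptor subunit that can release active TGF-beta, had levels of 11.52, 11.90, 11.66 and 11.75 in libraries labelled Double-Het, 12.14, 12.000, 11.57, 12.50 and 12.17 in Falcor-/-, 12.21, 12.22, 12.52 and 12.05 in Foxa2+/- and 12.36, 12.38, 12.17, 12.86 and 12.62 in wild type. Again no library labelled Double-Het reached wild type, with a change of -0.77 (SE 0.16, adjusted p = 0.00397). Neither passed in Falcor-/- (-0.50 and -0.40, adjusted p = 0.173 and 0.0839) or in Foxa2+/- (-0.71 and -0.23, adjusted p = 0.142 and 0.48).

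Itgav, the alpha v gene itself, was called lower in Falcor-/-. It had levels of 12.33, 12.33, 12.54 and 12.48 in libraries labelled Double-Het, 12.18, 12.56, 12.16, 12.10 and 12.18 in Falcor-/-, 12.40, 12.59, 12.66 and 12.60 in Foxa2+/- and 12.63, 12.54, 12.55, 12.45 and 12.38 in wild type. Falcor-/- replicate 7 lay within the wild-type range and the other 4 below it, and the change was -0.27 (SE 0.08, adjusted p = 0.0482), near the threshold. For this call, without any one of Falcor-/- replicates 6, 8, 9 or 10 or wild-type replicates 1, 2, 3 or 4 the change was -0.29 to -0.24 and the adjusted p 0.0674 to 0.119. Itgb6 and Itgb8, whose products with alpha v activate latent TGF-beta on epithelia, were not called. Itgb6 differed from wild type by -0.51 (95% confidence interval -0.89 to -0.12, adjusted p = 0.069) in libraries labelled Double-Het, -0.27 (95% confidence interval -0.63 to 0.09, adjusted p = 0.261) in Falcor-/- and -0.43 (95% confidence interval -0.81 to -0.05, adjusted p = 0.198) in Foxa2+/-. Itgb8 differed by 0.23 (95% confidence interval -0.43 to 0.88, adjusted p = 0.649), -0.03 (95% confidence interval -0.65 to 0.58, adjusted p = 0.946) and -0.25 (95% confidence interval -0.90 to 0.41, adjusted p = 0.754) in the same order. Itga5, the fibronectin receptor subunit, differed by -0.35 (95% confidence interval -0.63 to -0.08, adjusted p = 0.0794) in libraries labelled Double-Het, and Itga2b, a platelet subunit, by -0.04 (95% confidence interval -0.36 to 0.28, adjusted p = 0.884).

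**Figure D4:**
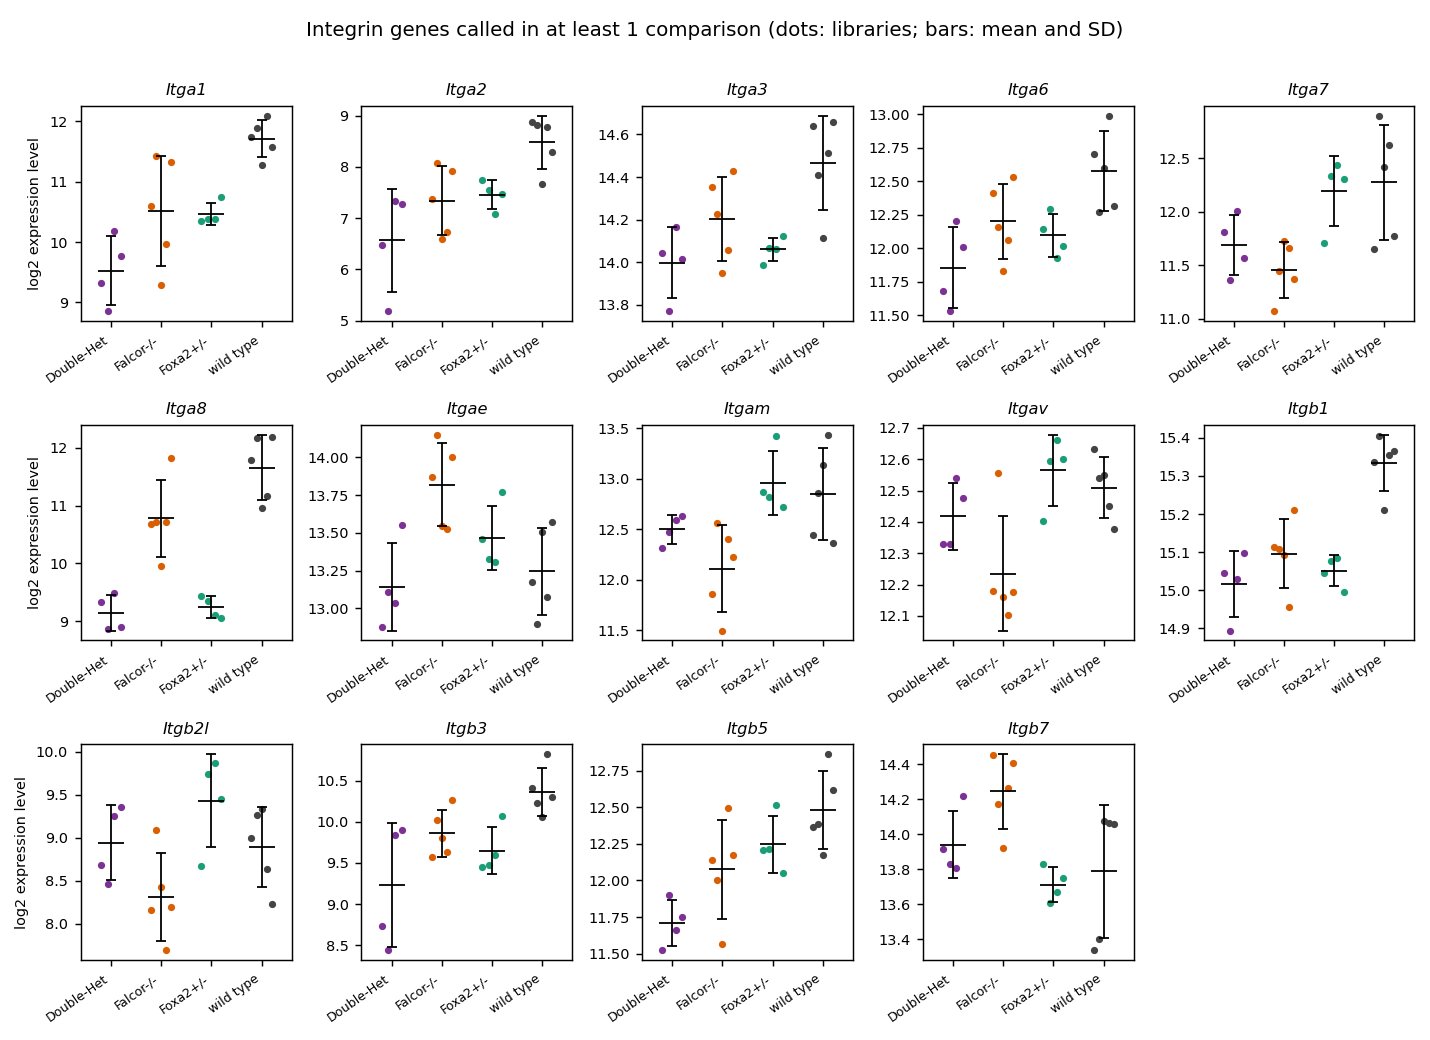
Log2 expression levels of the 14 integrin genes called in at least 1 of the 6 comparisons, with each dot 1 library and bars at the mean and SD (n = 4 Double-Het, 5 Falcor-/-, 4 Foxa2+/- and 5 wild type); each panel has its own axis, which does not start at 0. For Itga8 the Double-Het and Foxa2+/- libraries lie between 8.88 and 9.49, all below the Falcor-/- and wild-type libraries.

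Of the 8 leukocyte integrins, 0 were called in libraries labelled Double-Het by limma. The unadjusted p was below 0.05 for Itgax alone, which was higher. Of all genes, 14.8% were called in that comparison, so that with 8 genes the 0 cannot be set apart from the background. In Falcor-/- the leukocyte integrins were divided. Itgae, the alpha E subunit of T cells and dendritic cells that binds E-cadherin on epithelium, had levels of 12.87, 13.11, 13.04 and 13.55 in libraries labelled Double-Het, 13.87, 14.15, 13.55, 13.53 and 14.000 in Falcor-/-, 13.46, 13.33, 13.31 and 13.77 in Foxa2+/- and 13.18, 12.89, 13.51, 13.07 and 13.57 in wild type. Every Falcor-/- library exceeded the wild-type mean, with overlap at the upper end of wild type, and Itgae was the only member called higher against wild type. The change was 0.57 (SE 0.16, adjusted p = 0.0364), and without any one of Falcor-/- replicates 6 or 10 or wild-type replicates 1, 2 or 4 the change was 0.49 to 0.56 and the adjusted p 0.0626 to 0.0927. Centred on epithelial genes the change was 0.37 and no longer called (adjusted p = 0.158). Itgam, the alpha M subunit of macrophages and granulocytes, had levels of 12.31, 12.47, 12.59 and 12.63 in libraries labelled Double-Het, 11.86, 12.56, 11.49, 12.40 and 12.22 in Falcor-/-, 12.86, 12.82, 13.42 and 12.72 in Foxa2+/- and 12.45, 12.86, 13.13, 13.44 and 12.37 in wild type. Its change in Falcor-/- was -0.74 (SE 0.22, adjusted p = 0.0427), and without any one of Falcor-/- replicates 6, 8, 9 or 10 or wild-type replicates 1, 2, 3 or 4 the change was -0.84 to -0.59 and the adjusted p 0.0553 to 0.103. Markers of macrophages and other myeloid cells varied among the Falcor-/- libraries, with a list mean from 10.72 to 12.72. Of 16 such markers 5 were called lower and 1 higher in Falcor-/-, and their part in the Itgam result was not tested. Itgb2, the common beta 2 subunit gene, differed from wild type by 0.23 (95% confidence interval -0.18 to 0.63, adjusted p = 0.405) in Falcor-/- and -0.24 (95% confidence interval -0.67 to 0.19, adjusted p = 0.592) in Foxa2+/-. In libraries labelled Double-Het, Itgax, of dendritic cells and macrophages, differed from wild type by 0.48 (95% confidence interval 0.01 to 0.96, adjusted p = 0.156), Itgal, of most leukocytes, by -0.41 (95% confidence interval -0.89 to 0.06, adjusted p = 0.236) and Itgad by -0.22 (95% confidence interval -2.01 to 1.57, adjusted p = 0.882). Itga4 and Itga9, whose products bind VCAM-1 and tenascin, were called in no comparison, with differences of -0.32 (95% confidence interval -0.82 to 0.18, adjusted p = 0.386) and -0.35 (95% confidence interval -0.67 to -0.02, adjusted p = 0.141) in the same libraries.

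The mutant genotypes were also compared with each other. Against Falcor-/-, 3 members were lower in libraries labelled Double-Het and 0 were higher, with 5.15% of all genes called, 3% lower and 2.15% higher. Lama2 differed by -1.65 (adjusted p = 0.00658) and Itga8 by -1.63 (adjusted p = 0.00603), both without overlap between the groups. Itgae differed by -0.68 (adjusted p = 0.0262), for which without any one of Double-Het replicates 15, 16 or 17 or Falcor-/- replicates 6 or 10 the change was -0.66 to -0.59 and the adjusted p 0.0539 to 0.0867. Without Falcor-/- replicate 8 the count was 5, and the share of all genes called was 6.98%. Endothelial markers moved with these members, since 16 of 20 were lower in libraries labelled Double-Het than in Falcor-/-.

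Against Foxa2+/-, 0 members were called in libraries labelled Double-Het by limma, where 2.43% of all genes were called, 1.06% higher and 1.37% lower. At an unadjusted p under 0.05 there were 9, and the share of all genes at that threshold is not given here. With library weights 5 members passed, but 13.9% of all genes were then called, so that these 5 were near the background. The differences were -1.03 (95% confidence interval -1.74 to -0.32, adjusted p = 0.114) for Lama2, -0.09 (95% confidence interval -0.78 to 0.59, adjusted p = 0.905) for Itga8 and -0.03 (95% confidence interval -0.17 to 0.10, adjusted p = 0.813) for Itgb1. For Lama2 the difference between libraries labelled Double-Het and Foxa2+/- thus did not pass, although no library overlapped: the 4 levels were 7.28, 6.65, 7.12 and 6.45 in libraries labelled Double-Het and 7.85, 7.75, 7.50 and 8.50 in Foxa2+/-.

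Between Falcor-/- and Foxa2+/-, 2 members were higher and 4 lower in Falcor-/-, with 16.7% of all genes called, 8.56% higher and 8.1% lower, so that the 16.2% of members called was near the background. Itga8 was higher in Falcor-/- by 1.54 (SE 0.31, adjusted p = 0.00681), with no overlap. With the endothelial mean as a covariate its difference was 0.55 and did not pass (adjusted p = 0.352). Of the markers, 15 of 20 endothelial and 8 of 15 mesenchymal genes were higher in Falcor-/-, and 6 of 16 myeloid genes were lower. Itgb7, the beta subunit partner of alpha E and alpha 4 in lymphocytes, was also higher. It had levels of 13.92, 13.83, 13.81 and 14.22 in libraries labelled Double-Het, 14.45, 14.17, 13.92, 14.27 and 14.41 in Falcor-/-, 13.83, 13.61, 13.67 and 13.75 in Foxa2+/- and 13.34, 13.40, 14.08, 14.06 and 14.06 in wild type. The 5 Falcor-/- libraries lay above the 4 Foxa2+/- libraries, and the difference was 0.53 (SE 0.16, adjusted p = 0.0324). Lower in Falcor-/- were Itgb2l, a beta 2-like subunit gene, with a difference of -1.12 (adjusted p = 0.0244), Itgam with -0.85 (adjusted p = 0.0228), Itga7 with -0.74 (adjusted p = 0.0404) and Itgav with -0.33 (adjusted p = 0.0224). Itgb2l had levels of 8.69, 8.46, 9.26 and 9.36 in libraries labelled Double-Het, 8.16, 9.09, 8.43, 7.70 and 8.19 in Falcor-/-, 8.67, 9.74, 9.87 and 9.45 in Foxa2+/- and 9.002, 9.26, 9.34, 8.63 and 8.23 in wild type. Falcor-/- replicate 7 was the library that overlapped Foxa2+/-. For Itgb7, without any one of Falcor-/- replicates 6, 9 or 10 or Foxa2+/- replicates 12, 13 or 14 the change was 0.48 to 0.54 and the adjusted p 0.0642 to 0.0924. For Itgb2l, without any one of Falcor-/- replicates 6, 9 or 10 or Foxa2+/- replicates 12, 13 or 14 the change was -1.11 to -0.96 and the adjusted p 0.0512 to 0.0917. For Itga7, without any one of Falcor-/- replicates 6, 9 or 10 or Foxa2+/- replicates 12, 13 or 14 the change was -0.79 to -0.64 and the adjusted p 0.0589 to 0.125, and for Itgav without any one of Falcor-/- replicates 9 or 10 or Foxa2+/- replicates 12, 13 or 14 the change was -0.32 to -0.30 and the adjusted p 0.0508 to 0.0814. For Itgam, without any one of Falcor-/- replicate 6 or Foxa2+/- replicate 13 the change was -0.79 to -0.69 and the adjusted p 0.0524 to 0.092. The count of 6 became 1 to 3 without Falcor-/- replicate 6, 9 or 10 or Foxa2+/- replicate 12, 13 or 14, and was 2 without wild-type replicate 3 and Falcor-/- replicate 10 together. The share of all genes called fell likewise, to between 5.01% and 9.43% in the former fits and to 8.71% in the latter.

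Partners of the 2 families were read from lists of genes around them. Of 24 genes of basement membrane partners, 10 were called lower and 0 higher in libraries labelled Double-Het, 5 and 0 in Falcor-/- and 5 and 2 in Foxa2+/-. Of all genes, 7.57%, 4.24% and 4.15% were called lower in these comparisons and 7.21%, 5.23% and 1.96% higher. The list medians were -0.42, -0.36 and -0.41, beside all-gene medians of 0.07, 0.03 and 0.04. The endothelial and mesenchymal markers fell in the same comparisons, as given beside Lama2, and their part in the changes of this and the following lists was not tested. Nid1, which encodes nidogen, the link between laminin and collagen IV, averaged 9.27 ± 0.52 in libraries labelled Double-Het, 10.58 ± 0.69 in Falcor-/-, 9.81 ± 0.44 in Foxa2+/- and 11.72 ± 0.45 in wild type (SD). It changed by -2.46 (adjusted p = 0.000132), -1.14 (adjusted p = 0.0366) and -1.91 (adjusted p = 0.00187) in the 3 mutant groups. Egflam, the pikachurin gene, whose product binds dystroglycan, changed by -2.63 (adjusted p = 0.000106) in libraries labelled Double-Het and -2.25 (adjusted p = 0.000887) in Foxa2+/-, and its difference of -0.84 (adjusted p = 0.094) in Falcor-/- did not pass. Col4a1, a collagen IV chain gene, changed by -1.11 (adjusted p = 0.000623) in libraries labelled Double-Het, -0.75 (adjusted p = 0.0203) in Falcor-/- and -0.71 (adjusted p = 0.0271) in Foxa2+/-. Tinagl1 rose by 0.54 (adjusted p = 0.026) in Foxa2+/-, and its differences of 0.13 (adjusted p = 0.556) in libraries labelled Double-Het and -0.11 (adjusted p = 0.546) in Falcor-/- did not pass.

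Of 27 tested genes of integrin ligands and counter-receptors, 16 were lower and 0 higher in libraries labelled Double-Het, 5 and 0 in Falcor-/- and 12 and 1 in Foxa2+/-, with medians of -0.85, -0.30 and -0.82. The shares of all genes called lower were 7.57%, 4.24% and 4.15%, and those called higher 7.21%, 5.23% and 1.96%. This list holds Vwf, which is also in the endothelial marker list. Vcam1, which encodes the counter-receptor of alpha 4 beta 1, had levels of 8.11, 7.21, 6.86 and 6.80 in libraries labelled Double-Het, 8.41, 9.67, 7.72, 9.89 and 9.37 in Falcor-/-, 11.65, 11.16, 11.40 and 10.35 in Foxa2+/- and 11.21, 10.40, 10.95, 10.62 and 10.41 in wild type. All libraries labelled Double-Het and all Falcor-/- libraries lay below wild type, while Foxa2+/- overlapped it. Its change was -3.47 (SE 0.40, adjusted p = 5.01e-05) in libraries labelled Double-Het and -1.71 (SE 0.38, adjusted p = 0.0169) in Falcor-/-, the difference of 0.42 (SE 0.40, adjusted p = 0.649) in Foxa2+/- did not pass, and the libraries labelled Double-Het differed from Foxa2+/- by -3.90 (SE 0.42, adjusted p = 0.00015). Of 16 myeloid markers, 8 had lower and 8 higher means in Falcor-/- than in wild type, with 5 called lower and 1 higher. In libraries labelled Double-Het, 6 of these markers were called lower than in wild type and 5 lower than in Foxa2+/-, with 0 higher. Among them C1qa, a complement gene of macrophages, was 10.49, 9.97, 9.58 and 9.60 in libraries labelled Double-Het, 8.92, 13.15, 9.78, 13.73 and 9.83 in Falcor-/-, 13.90, 13.64, 14.10 and 13.17 in Foxa2+/- and 13.97, 13.19, 13.08, 13.35 and 13.92 in wild type. It was chosen after its values were seen, and the part of these markers in the Vcam1 result was not tested. Postn, which encodes the matrix protein periostin, changed by -3.31 (adjusted p = 8.53e-05) in libraries labelled Double-Het and -2.74 (adjusted p = 0.000874) in Foxa2+/-, and its difference of -0.47 (adjusted p = 0.411) in Falcor-/- did not pass. Ltbp1, which encodes a binding protein that holds latent TGF-beta in the matrix, changed by -2.14 (adjusted p = 0.000182), -1.04 (adjusted p = 0.0364) and -2.09 (adjusted p = 0.000738) in libraries labelled Double-Het, Falcor-/- and Foxa2+/-.

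Of 33 integrin adaptor genes 7 were lower in libraries labelled Double-Het, 1 in Falcor-/- and 4 in Foxa2+/-, and 1 was higher in Foxa2+/-, with medians of -0.10, -0.03 and -0.07. The shares of all genes called in either direction were 14.8%, 9.47% and 6.11%, so that the 1 of 33 in Falcor-/- was below the background. Lims2, the gene of an adaptor that joins integrin-linked kinase, changed by -1.70 (adjusted p = 0.000506) in libraries labelled Double-Het and -1.39 (adjusted p = 0.00453) in Foxa2+/-. Fermt2, the kindlin-2 gene, changed by -0.57 (adjusted p = 0.00129) and -0.54 (adjusted p = 0.00332) in the same groups. In Falcor-/- the differences of -0.34 (adjusted p = 0.362) for Lims2, -0.26 (adjusted p = 0.08) for Fermt2 and -0.26 (adjusted p = 0.309) for Parvb did not pass. Parvb, a parvin of the same complex, changed by -1.28 (adjusted p = 0.000243) and -0.73 (adjusted p = 0.0286) in libraries labelled Double-Het and Foxa2+/-. Tns1, the tensin-1 gene, changed by -0.94 (adjusted p = 0.00307) in libraries labelled Double-Het and -0.66 (adjusted p = 0.0335) in Falcor-/-, and its difference of -0.32 (adjusted p = 0.395) in Foxa2+/- did not pass. Of 12 tested genes of hemidesmosomes and other laminin receptors, 2 were higher and 2 lower in libraries labelled Double-Het, 0 and 1 in Falcor-/- and 0 and 0 in Foxa2+/- by limma. Sdc1, a syndecan gene of epithelia, rose by 0.41 (adjusted p = 0.00365) in libraries labelled Double-Het, and its differences of 0.08 (adjusted p = 0.478) in Falcor-/- and 0.17 (adjusted p = 0.284) in Foxa2+/- did not pass. Dst, which encodes a hemidesmosome plaque protein, changed by -0.61 (adjusted p = 0.0294) in libraries labelled Double-Het and -0.67 (adjusted p = 0.0279) in Falcor-/-, and its difference of -0.09 (adjusted p = 0.869) in Foxa2+/- did not pass.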

How the data were processed

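RNA of EpCAM-captured lung cells was sequenced in 18 libraries of 4 genotypes. The authors deposited 1 log2 expression level per gene and library, for 15544 Ensembl genes. The submitters' processing notes name STAR, limma and the build mm9, with no versions. How reads were counted, on which annotation and whether by strand is not stated there. From the values, the libraries were quantile normalized, since at the same rank they differed by at most 0.0512 over the top 90% of ranks. Read depth is unknown, so that no counting interval is given. Symbols came from GENCODE names on GRCm38, which matched 14994 genes.

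The deposited log2 levels were fitted in limma 3.58.1 (R 4.3.3) with 1 mean per genotype over all 18 libraries and an intensity trend. Genes with a mean of at least 6 were tested, and p-values were Benjamini-Hochberg adjusted over all 15249. A gene was called below 0.05, in 6 comparisons. The fit was tested on simulated data. The members, lists, tests and named genes were chosen with earlier results of these data known. Members called in any comparison were to be given by library, and up to 4 called genes per partner list and comparison were eligible to be named. Alternatives changed the filter, trend, library weights, libraries fitted, scaling, a covariate and single libraries. Promoters are RefSeq's on GRCm38.p6, and because the files use mm9 no other coordinates are given. Figures were drawn with matplotlib 3.10.9. The values of 1 member, called in no comparison but included in the counts, are not reported here.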

Additional observations from a re-analysis of the deposited data

Results flagged for a closer look

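In 9 of 148 sets of libraries of 1 member and 1 genotype, the highest or lowest library lay farther from the others than Dixon's 95% limit allows; chance alone gives about 1 in 20. In Double-Het, Itgb8 was 8.06 in replicate 15, against 7.12 in each of the others. In Falcor-/-, Itga10 was 9.29 in replicate 8, against 8.18 to 8.38, and Itgav was 12.56 in replicate 7, against 12.10 to 12.18. In Foxa2+/-, Itga1 was 10.75 in replicate 14, against 10.35 to 10.39. Replicate 11 of that genotype was low for Itga2b, at 8.63 against 9.05 to 9.14, and for Lamb2, at 14.26 against 14.42 to 14.43. Replicate 13 was low for Itgb4, at 11.98 against 12.49 to 12.59. In wild type, Itgb8 was 7.74 in replicate 3, against 6.94 to 7.07, and Lamb3 was 14.22 in replicate 1, against 13.79 to 13.88.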

How the results depend on the processing

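The counts of members called stayed within 1.5 times of those reported with no filter, with a mean of at least 8 and without the trend. With only the compared genotypes fitted, Falcor-/- against wild type gave 1, where 3.17% of all genes were called. Centred on epithelial genes, 24 were called in Double-Het, 16 in Falcor-/- (0 higher and 16 lower, against 1 and 7) and 11 in Foxa2+/- against wild type, where 37.3%, 24.3% and 19.9% of all genes were called; the medians of all genes then shifted to -0.25, -0.17 and -0.19. Library weights gave 10 in Foxa2+/- against wild type, 5 in Double-Het against Falcor-/-, 5 against Foxa2+/- and 11 in Falcor-/- against Foxa2+/-. The shares of all genes called rose too, to 12.8%, 7.38%, 13.9% and 31.2% in the same order. With the endothelial mean as a covariate, 0 were called by limma in the 5 comparisons that had calls, with 0.0131%, 1.16% and 0% of all genes called in Double-Het, Falcor-/- and Foxa2+/- against wild type; the estimates reversed to 0.16 for Itga3, 0.12 for Lama3, 0.16 for Lama4 and 0.0951 for Lamc1 in Double-Het and to 0.13 for Itga3 in Foxa2+/-. The cause was not tested. Leaving out 1 library gave 10 to 15 calls in Double-Het, 1 to 13 in Falcor-/- and 4 to 6 in Foxa2+/- against wild type, 2 to 5 in Double-Het against Falcor-/-, 0 to 0 against Foxa2+/-, and 1 to 8 in Falcor-/- against Foxa2+/-. In these fits 8.8% to 16%, 2.32% to 25.7% and 3.65% to 7.33% of all genes were called against wild type. Between the mutants it was 2.7% to 8.09%, 0.59% to 2.5% and 5.01% to 31.1%, in the same order. Leaving out wild-type replicate 3 and Falcor-/- replicate 10 together, chosen after seeing the data, gave 1 in Double-Het against Foxa2+/- and 2 in Falcor-/- against Foxa2+/-. The shares of all genes called were then 2.41% and 8.71%. No paired analysis was possible because the labels name no pairing or batch, so that any pairing is unknown. Depth is unknown, so its limits cannot be given.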
